A study of Mus musculus with 16 samples.

Results

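The miRNAs described here carry the names miR-297, miR-466, miR-467 and miR-669, a rodent family best known from a large repeat-derived cluster inside an intron of Sfmbt2, a Polycomb-related gene. Members were taken by name from the mouse miRNAs on the array: 61 of 1247, with 3 named miR-297, 23 miR-466, 12 miR-467 and 23 miR-669. The RNA came from RAW264.7, an established mouse macrophage-like cell line of leukaemic origin, and was read as total RNA on Agilent single-colour miRNA arrays. Cells had 48 h in medium without added cytokine (groups Media and Media_IL33) or with interleukin-4 and interleukin-13 at 10 ng per ml (groups Th2 and Th2_IL33), followed by a wash. For the last 4 h, Media_IL33 and Th2_IL33 received murine recombinant interleukin-33 at 20 ng per ml, and Media and Th2 did not. Each of the 4 groups held 4 arrays, 1 from each of 4 independent experiments, and a number after a group name (Media 3) gives the experiment. The series asks how Th2 cytokines alter the response of macrophages to IL-33, and all 4 groups are the same cell line, so no value here describes primary macrophages.

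A miRNA is cut from a hairpin precursor whose 5′ and 3′ arms give the products named 5p and 3p, and its seed, bases 2 to 8, does most of the pairing with target messenger RNAs. The Sfmbt2 cluster grew by repeated duplication in rodents and is known for expression in placenta and embryonic stem cells. Because its hairpins derive from simple repeats, the 5p arms are runs rich in G and U and the 3p arms runs rich in A and C, and many members differ by only a few bases.

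Of the 61 members, 60 matched a RefSeq gene by name (assembly GRCm38.p6). For 50 of them every matching gene lay inside Sfmbt2, for 2 (both arms of miR-466f) some did, and for 8 none did. These 8 were miR-466i-3p, miR-466i-5p, miR-466j, miR-466k, miR-466q, miR-467f, miR-467g and miR-669n. RefSeq placed 71 miRNA genes with a Mir symbol inside Sfmbt2, all 71 named for the same 4 subfamilies, so no miRNA outside the name rule came from that host gene by this table. The array annotation gives mm9 positions for probes of only 32 members. It places 31 of them in chr2:10388918-10438764, a span of 49847 bases, and 1 elsewhere only. A name is therefore not a locus: the probe cannot tell which gene copy made the RNA.

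The probes are antisense to the miRNAs, and their composition fell into separate classes that the name rule did not use. The longest probes of 32 members held more G and T than 50% of their bases, so the miRNA is rich in A and C, and those of the other 29 held less. All 26 members named 3p were A/C-rich and all 25 named 5p were G/U-rich, with 6 and 4 of the 10 members without an arm. The probes below are shown because this split separates the behaviour of the family, with alternating GT or CA runs of 4 or more bases in capitals, in the 5′ to 3′ direction as the array files give them. The first 4 detect A/C-rich and the last 5 G/U-rich members.
miR-466f-3p: GTGTGTaTGTGTGTGTG
miR-467b-3p: GTGTtgGTGTGTGTat
miR-467f: tgtagGTGTGTGTGTGT
miR-669p-3p: atacGTGTGTGTGTGTatg
miR-466f-5p: catgCACAtgCACACAC
miR-669b-5p: acatgCACAtgCACACA
miR-466j: ttACACACAtgCACAtgc
miR-466m-5p: atACACACAtgCACAtgc
miR-466i-5p: CACACACACACACACA

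The pair miR-466f-5p and miR-669b-5p shares a run of 16 bases, and the pair miR-466j and miR-466m-5p a run of 17. In all, 38 of the 61 members share a run of at least 14 bases with another member, and the probes of 11 list a further miRNA name. Signals of such members cannot be assigned with certainty to 1 miRNA. RefSeq gave the mature sequence of 7 members, each the exact reverse complement of its probe over the probe's length. The 6 that were tested are shown with the seed in capitals, and no 2 of the 7 share a seed.
miR-466i-3p: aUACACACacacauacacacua
miR-466q: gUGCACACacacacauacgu
miR-467f: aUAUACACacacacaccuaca
miR-467g: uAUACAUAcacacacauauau
miR-466j: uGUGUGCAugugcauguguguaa
miR-669n: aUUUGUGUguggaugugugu

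Values are relative signals: the summed probe intensity of a miRNA divided by the 75th percentile of the 178 miRNAs that every one of the 16 arrays detected, with a floor of 0.0353. Each array carried 49880 miRNA spots, none saturated, and 206 to 256 miRNAs were detected. Of the 4 myeloid markers listed, 2 were found by name: miR-223-3p, detected on 16 arrays, and miR-511-3p, on 8. Their summed relative signal was 0.336 to 0.610 in groups grown without and 0.849 to 1.42 in groups grown with Th2 cytokines. The other names, miR-142-3p and miR-142-5p, matched none on the array. It holds miR-142a-3p and miR-142a-5p, which were tested but are not in this sum. Of 17 markers of other cell types 15 were detected on no array, miR-206-3p on 11 and miR-294-3p on 1, and their summed signal was 0.146 to 0.274. The floor was not applied in these sums of marker signals. The embryonic stem cell miRNAs miR-291a-3p and miR-295-3p were among the 15. The part of these marker levels in the members' values was not tested, and in bulk RNA fewer cells of a type and less RNA per cell cannot be told apart. Media 1, Media 3 and Th2_IL33 2 stood apart from the other arrays in the members' values, so medians are given with and without them. The arrays lay on 2 slides: slide 2 held Media 1, Th2 4, Media_IL33 1 and 2 and all of Th2_IL33, and slide 1 the rest. The number of arrays limits the precision of every value.

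Members made up more of the detectable miRNAs than their number on the array, and their detection varied most between single arrays. By the scanner software's call, 21 members were detected on all 16 arrays, 26 on some and 14 on none. The number detected per array ran from 21 on Th2_IL33 2 to 43 on Media 3, with a median of 33, while other miRNAs ranged from 174 to 219. The other Media arrays had 30, 32 and 35 members, Th2 arrays 30 to 34, Media_IL33 arrays 35 or 36 and the remaining Th2_IL33 arrays 30, 37 and 32. The extremes came from the A/C-rich members, of which 29 were detected on Media 3, 13 on Media 1 and 11 on Th2_IL33 2, against 19 to 22 on the other 13 arrays. G/U-rich members ranged from 10 to 17.

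**Figure D1:**
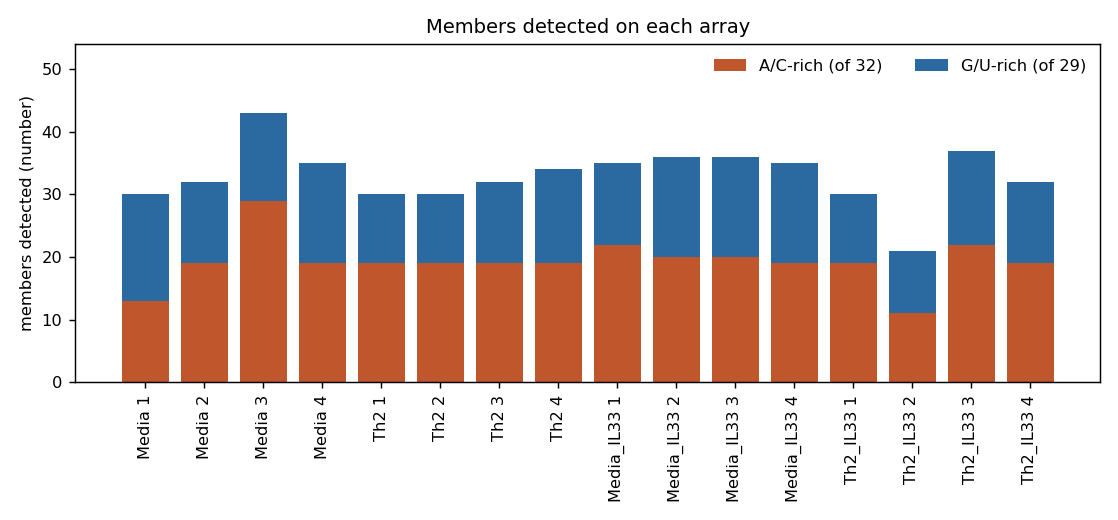
The number of members detected on each of the 16 arrays, stacked by class (A/C-rich of 32, G/U-rich of 29). Media 3 stands highest with 43 and Th2_IL33 2 lowest with 21.

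No member named miR-297 was detected on all 4 arrays of any group. The probes of miR-669b-5p, detected on 15 arrays, also list the name miR-297a-5p, so that signal cannot be assigned to 1 of the names. MiR-297a-3p was detected on 5 arrays, with a relative signal of 0.807 on Media 3 and at most 0.0838 on the other 15. MiR-297c-5p was detected on 2 arrays and miR-297b-5p on none. The 7 members detected on exactly 1 array, miR-466b-3p, miR-466d-3p, miR-466l-3p, miR-466o-3p, miR-669i, miR-669l-3p and miR-669m-3p, were all A/C-rich and all 7 were detected on Media 3. Of 44 other miRNAs detected on exactly 1 array, 31 were also detected on Media 3.

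The 231 miRNAs that some group showed as detected on each of its 4 arrays were tested. These include 32 members: 12 of miR-466, 8 of miR-467 and 12 of miR-669. By arm they were 15 named 3p, 11 named 5p and 6 with no arm in the name. By class they were 19 A/C-rich and 13 G/U-rich. The 29 members left out are described by their detection alone.

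The 19 A/C-rich members moved together on the arrays, and mostly within groups. MiR-466f-3p, from a hairpin copied inside and outside Sfmbt2, had relative signals of 0.357, 1.06, 2.37 and 0.726 on Media 1 to 4, and of 0.851, 0.870, 0.876 and 0.835 on Th2 1 to 4. Its values were 1.21, 1.10, 1.01 and 0.855 on Media_IL33 1 to 4, and 0.967, 0.361, 1.08 and 0.816 on Th2_IL33 1 to 4. Media 1 and Th2_IL33 2 were low, Media 3 was high, and the Th2 arrays, which lay within a narrow range, fell inside the range of Media.

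The same order held for the other A/C-rich members. MiR-467f, from a gene outside Sfmbt2, had 0.282, 0.793, 1.31 and 0.523 on Media 1 to 4, and 0.279 on Th2_IL33 2. MiR-669p-3p, whose genes all lie inside Sfmbt2, had 0.409, 1.06, 2.02 and 0.683 on Media 1 to 4, and 0.382 on Th2_IL33 2. Among other members detected on most arrays, miR-467a-3p ranged from 0.120 to 2.19, miR-467b-3p from 0.0567 to 1.83, miR-467d-3p from 0.0443 to 1.01, miR-466g from 0.348 to 2.47, miR-466h-3p from 0.331 to 1.35 and miR-669f-3p from 0.102 to 0.901.

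Media 3 was the highest of the 16 arrays for 19 of 19 A/C-rich members, Media 1 the lowest of its group for 19 of 19, and Th2_IL33 2 the lowest of its group for 19 of 19. For the 9 members well above background on Media 1, the log2 difference between Media 3 and Media 1, cultures with the same label, was 1.89 to 3.20 with a median of 2.66. The other 10 were not well above background on Media 1, miR-466m-3p being at the floor there, so their differences are bounds. Against the higher of the member's own signal and the lowest signal well above background on that array, they were at least 3.70 to 4.96. For miR-467d-3p Media 3 was at least 17.7-fold higher. As measured, the 19 differences had a range of 1.89 to 4.96 and a median of 4.19, and with the bounds the median was 3.70. After removal of group means, the 171 pairs of A/C-rich members had correlations over the 16 arrays of 0.92 to 0.999 with a median of 0.992. These members share arrays, scaling and repeat sequence, so the correlations describe their joint movement only.

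The SD of the log2 values within groups had a median of 1.00 for A/C-rich members, 0.31 for G/U-rich members and 0.25 for the 199 other tested miRNAs. By group, the median SD of A/C-rich members was 1.74 in Media, 0.055 in Th2, 0.21 in Media_IL33 and 0.91 in Th2_IL33. The wide groups are those that hold Media 1, Media 3 and Th2_IL33 2. All 56 probes of the 19 members gave a higher signal on Media 3 than on Media 1. Most other miRNAs were low on the array where these were high: Media 3 was the lowest of the 16 arrays for 110 of the 199 other tested miRNAs, and the highest for 15. Members held 6.63% of the total miRNA signal on Media 3, 1.35% on Media 1, 0.779% on Th2_IL33 2 and 1.52 to 2.67% on the other 13 arrays. The part that RNA quality, labelling or hybridisation has in these values was not tested.

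**Figure D2:**
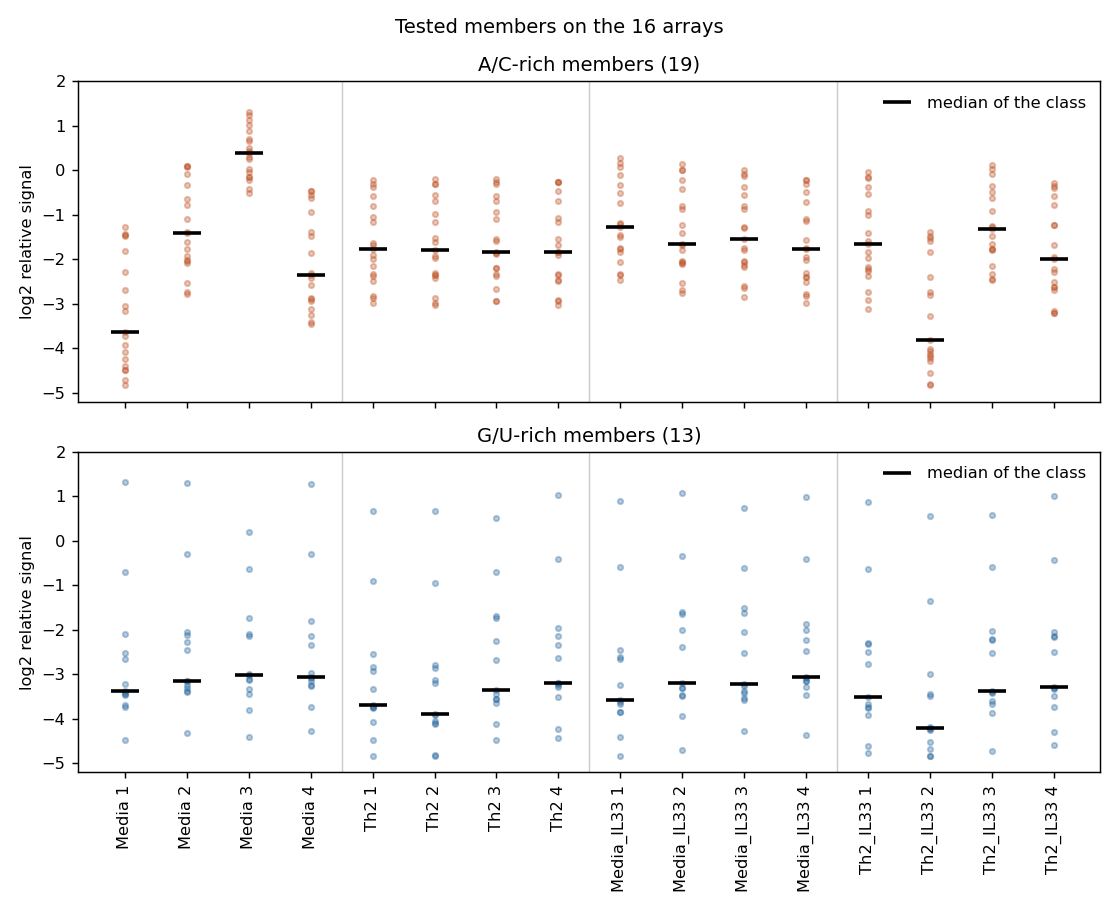
Log2 relative signal of each tested member (points) on the 16 arrays, with the class median as a black bar, for 19 A/C-rich members (top) and 13 G/U-rich members (bottom). The A/C-rich median is 0.38 on Media 3, -3.65 on Media 1 and -3.82 on Th2_IL33 2, while the G/U-rich medians lie between -4.20 and -3.0.

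The 13 G/U-rich members had a log2 difference between Media 3 and Media 1 of -1.13 to 0.50, with a median of 0.25. Probes of tested A/C-rich members held 71.4 to 94.1% G and T and those of G/U-rich members 0 to 33.3%, with no tested member between. Of the G/U-rich members of miR-669 detected on the most arrays, miR-669n had a lowest, median and highest relative signal of 0.390, 0.660 and 0.820, and miR-669e-5p of 0.0888, 0.227 and 0.327. Over the 32 members, the share of G and T and the difference between these arrays had a Pearson r of 0.84 and a Spearman rho of 0.63, and over the 199 other miRNAs 0.24 and -0.024. That share was chosen after it was looked at against this difference, and r follows the gap between the classes. Within the A/C-rich class, miR-466f-3p and miR-467f (94.1%) had 2.73 and 2.21 as measured. At 71.4%, miR-467e-3p and miR-467g had 4.75 and 4.30, and miR-467b-3p (93.8%) had 4.96. Of 13 other miRNAs with 70% or more G and T, 3 were higher on Media 3 by more than 1 (log2), against 11 of all 199. The values of the 13 ran from -1.04 to 4.35 with a median of -0.22. The 11 had shares of G and T from 56.3% (miR-207) to 86.7% (miR-574-3p). Below the share of miR-207, the highest difference among the 199 was 0.69 (miR-6348, 26.3%). Not all miRNAs with shares in that range were higher: miR-99b-5p (56.3%) had -0.66 and miR-3968 (86.7%) had -0.061.

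**Figure D3:**
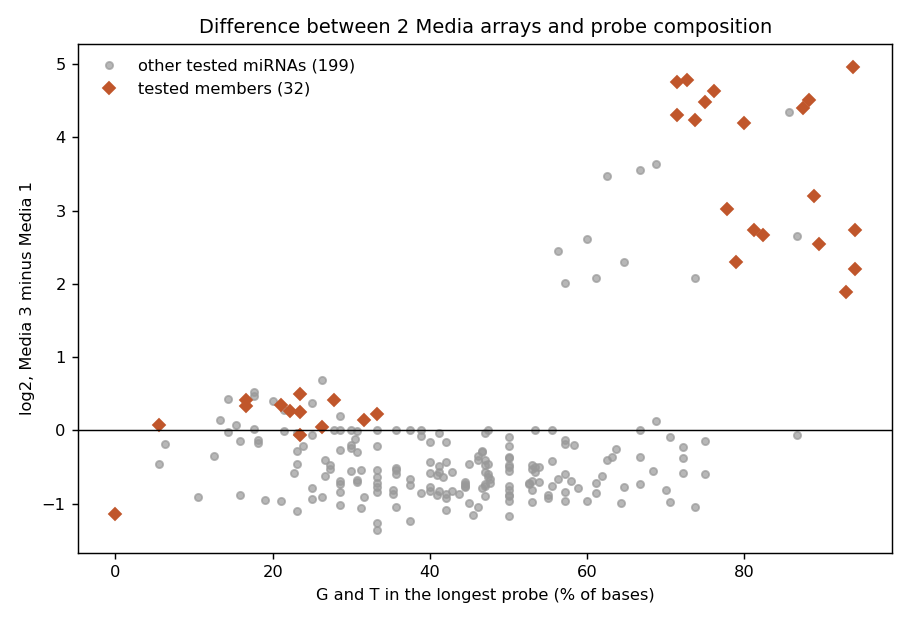
Log2 difference between Media 3 and Media 1 (vertical) against the share of G and T in the longest probe (horizontal, % of bases) for 32 tested members (diamonds) and 199 other tested miRNAs (circles). The A/C-rich members lie between 1.89 and 4.96, 10 of them not well above background on Media 1, and the G/U-rich members between -1.13 and 0.50.

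The 5 other miRNAs whose values, centred on group means, followed the median of the family most closely were miR-574-3p (r = 0.996), miR-877-3p (0.970), miR-1943-3p (0.969), miR-207 (0.959) and miR-485-3p (0.948), over 16 arrays. That median itself followed the A/C-rich members (r of 0.967 to 0.998) and not the G/U-rich members (-0.51 to 0.54). The probes of these 5 miRNAs held 86.7, 64.7, 66.7, 56.3 and 62.5% G and T. Their log2 differences between Media 3 and Media 1 were 2.66, 2.30, 3.55, 2.44 and 3.47, with miR-1943-3p and miR-485-3p not well above background on Media 1. The hairpin of miR-574 lies outside Sfmbt2 but pairs an A/C-rich 3p arm with a G/U-rich 5p arm, as the family does, and its mature sequences (RefSeq, GRCm38.p6) are shown with the seed in capitals.
miR-574-3p: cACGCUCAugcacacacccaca
miR-574-5p: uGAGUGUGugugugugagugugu

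The 3p arm of miR-574 had relative signals of 0.406, 1.27, 2.56 and 0.877 on Media 1 to 4. The 5p arm differed between Media 3 and Media 1 by -0.46 on the log2 scale. The arms of this hairpin thus separated on the same arrays as those of the family.

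Growth in Th2 cytokines without IL-33 was compared first. In Th2 against Media 0 of 32 members passed an adjusted p of 0.05 (limma, adjusted over the 231 miRNAs), where 9.52% of all tested miRNAs passed, 8.66% as higher and 0.866% as lower. At an unadjusted p under 0.05, 6 members were lower and 0 higher, against 15 (6.49%) and 41 (17.7%) of the 231. The 6 were miR-466f-5p, miR-466j, miR-466c-5p, miR-466h-5p, miR-466m-5p and miR-669k-5p, all G/U-rich. The median log2 difference was -0.13 for the family, -0.10 for A/C-rich and -0.41 for G/U-rich members, and 0.063 over all 231.

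MiR-466f-5p, a G/U-rich 5p arm, had relative signals of 0.0748, 0.0965, 0.0714 and 0.0752 on Media 1 to 4, and 0.0452, 0.0355, 0.0575 and 0.0533 on Th2 1 to 4. The groups did not overlap, which held in the lower direction for 2 members and for 1.73% of all tested miRNAs. The means were 0.0795 ± 0.0115 in Media and 0.0479 ± 0.00968 in Th2 (SD, n = 4), a log2 difference of -0.74 ± 0.24 (SE, limma adjusted p = 0.0629, lower in 4 of 4 experiments). It was well above background on 3 of 4 Media arrays and 1 of 4 Th2 arrays, so the value in Th2 is near the limit of measurement. It was detected on 4 of 4 Media and Media_IL33 arrays and on 2 of 4 Th2 and Th2_IL33 arrays, so it entered the test through the groups where it is high. The call and the size depended on the setting. Its log2 difference was -0.072 with normexp (adjusted p = 0.721) and -0.16 with the floor doubled (0.376). Here normexp adds an offset of 50 to each spot, and the doubled floor lies above all 4 Th2 values. Both draw the difference of so dim a miRNA toward 0 by construction, so they cannot decide its size. The adjusted p was 0.0376 with the experiment as a block, 0.0508 with experiment and slide as blocks and 0.184 in the authors' deposited table. It was 0.0391 without Media_IL33 1, 0.0472 without Th2_IL33 2 and 0.0402 without Th2_IL33 3, arrays that enter only through the shared variance.

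MiR-466j, whose RefSeq gene lies outside Sfmbt2, had 0.107, 0.102, 0.125 and 0.127 on Media 1 to 4. On Th2 1 to 4 it had 0.0751, 0.0577, 0.0852 and 0.109. Only Th2 4 reached the range of Media. The log2 difference was -0.53 ± 0.21 (limma adjusted p = 0.143, lower in 4 of 4 experiments), and the adjusted p was 0.0377 with the experiment as a block. With normexp the difference was -0.15 (0.267), and signals well above background came from 3 Media arrays and 2 Th2 arrays. In the blocked fit 2 members passed as lower in this comparison, miR-466f-5p and miR-466j, where 1.73% of all miRNAs passed as lower.

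MiR-466c-5p, with genes inside Sfmbt2, had 0.0910, 0.0952, 0.100 and 0.104 on Media 1 to 4, and 0.0600, 0.0601, 0.0805 and 0.0884 on Th2 1 to 4. Its groups did not overlap. The log2 difference was -0.45 ± 0.19 (limma adjusted p = 0.161), and -0.12 with normexp. Its signal was well above background on 3 of the Media arrays, and in Th2 on 1.
MiR-466h-5p had 0.236, 0.241, 0.300 and 0.289 on Media 1 to 4, and 0.171, 0.138, 0.209 and 0.257 on Th2 1 to 4. Only Th2 4 lay within the range of Media, and the log2 difference was -0.49 ± 0.21 (limma adjusted p = 0.170), and -0.16 with normexp.

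As a class, 12 of 13 G/U-rich members had a negative log2 difference, against 98 of all 231 miRNAs. In 4 of 4 experiments 10 of 13 were lower, against 10.4% of all tested miRNAs. Both counts include miR-466f-5p and miR-467c-5p, which entered the test only through groups grown without Th2 cytokines, where they are higher. MiR-467c-5p was well above background on no array. No A/C-rich member was lower in all 4 experiments. Media 1 was the lowest of its group for 19 of 19 of them, so 1 array weighs on that count for the whole class. The count of 12 of 13 was the same under each of the 5 other scalings or background treatments, with class medians of -0.12 (normexp) to -0.49. These settings rest on the same arrays, so they are not further evidence. After removal of group means, pairs of G/U-rich members had a median correlation of 0.76, so the 13 are not separate observations. Within slide 1 (3 arrays of each group) the class median was -0.59, and between the single arrays of slide 2, Media 1 and Th2 4, it was 0.13. Without Media 1, Media 3 and Th2_IL33 2 it was -0.48 (median of all miRNAs -0.013), with 9 members lower at an unadjusted p under 0.05, against 34 of all 231 (14.7%), and 1 past the threshold as lower, against 5 of all 231 (2.16%). MiR-669b-5p was the member with a positive difference (0.46 ± 0.56), with higher values in 3 of 4 experiments.

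The member past the threshold without those arrays was miR-466i-5p, whose probe is an unbroken CA repeat. It had 2.51, 2.46, 1.14 and 2.42 on Media 1 to 4, and 1.59, 1.58, 1.44 and 2.03 on Th2 1 to 4. Media 3 lay below all Th2 arrays and the other Media arrays above them, so the groups overlapped through 1 array. The log2 difference was -0.30 ± 0.22 (limma adjusted p = 0.449), and -0.58 ± 0.14 without Media 3 (0.0115). After removal of group means, this member was correlated at -0.51 with the family median, the lowest of the 32.

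**Figure D4:**
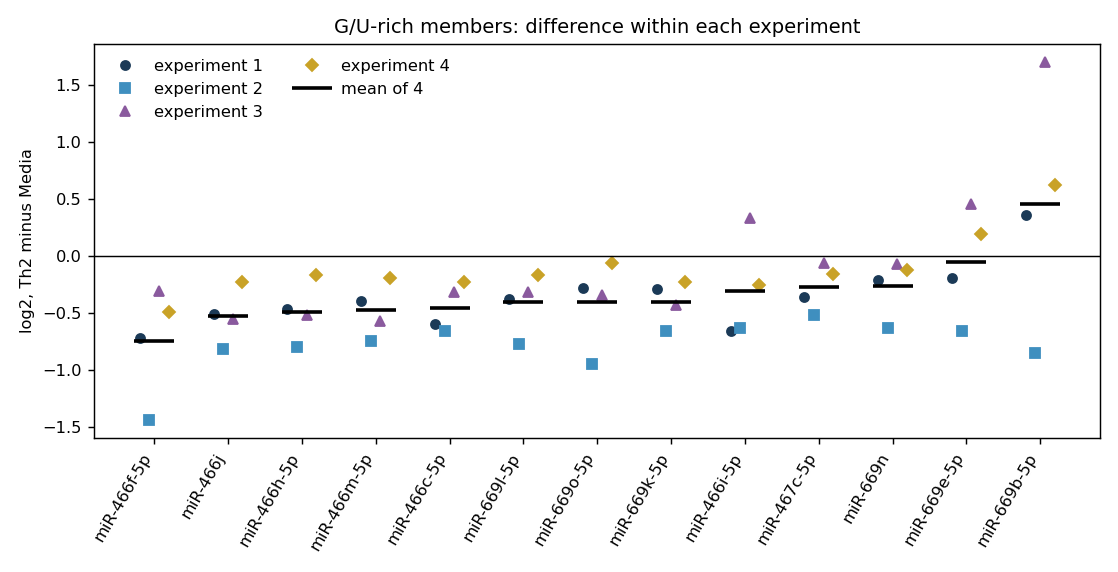
Log2 difference Th2 minus Media within each of 4 experiments (symbols) and their mean (black bar) for the 13 G/U-rich members. For 10 members all 4 symbols lie below 0, and miR-669b-5p has the widest range, from -0.86 to 1.71.

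In the A/C-rich class the Th2 difference was small beside its error. The log2 differences ran from -0.30 to 0.067, with standard errors of 0.33 to 0.79, and 15 of 19 were below 0 (9 of 19 with the scanner software's total signal). Each of the 19 was higher in 2 experiments and lower in the other 2. The class median was 1.45 between the single arrays of slide 2 and -0.66 within slide 1, and 0.052 without the 3 arrays that stand apart.

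Growth in Th2 cytokines was then compared under IL-33. In Th2_IL33 against Media_IL33 0 of 32 members passed, where 9.52% of all tested miRNAs did, 8.23% as higher and 1.3% as lower. At an unadjusted p under 0.05, 1 member was lower and 0 higher, against 2.6% and 17.7% of all tested miRNAs. With the experiment as a block no member passed, where 1.3% of all miRNAs were lower, and with array weights 1 did, where 3.03% were. This was miR-466f-5p, with 0.0475, 0.0660, 0.0841 and 0.0909 on Media_IL33 1 to 4, and 0.0412, 0.0353, 0.0690 and 0.0509 on Th2_IL33 1 to 4. The values overlapped between the groups, and each Th2_IL33 array was below the Media_IL33 array of its experiment. The log2 difference was -0.56 ± 0.24 (limma adjusted p = 0.201), with the value of Th2_IL33 2 at the floor. With normexp the direction turned (0.055). It was well above background on 4 of 4 Media_IL33 and 1 of 4 Th2_IL33 arrays.

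The next members by p were miR-466c-5p (-0.41 ± 0.19), miR-466m-5p (-0.37 ± 0.22) and miR-466h-5p (-0.36 ± 0.21), with limma adjusted p of 0.250, 0.389 and 0.406. All 32 members had negative log2 differences here, against 100 of all 231 miRNAs. Lower in 4 of 4 experiments were 7 members and 11.3% of all tested miRNAs. For miR-466m-5p and miR-669l-5p the values of 1 experiment differed by under 0.001 (log2), and beyond that tolerance the counts were 5 members and 10.4%. With normexp background correction 9 of 13 G/U-rich differences were negative, and 19 of 19 A/C-rich. The medians were -0.57 for A/C-rich and -0.33 for G/U-rich members, with 0.080 over all 231. Without the 3 arrays that stand apart they were -0.15 and -0.14, so both class medians were smaller without those arrays. With the slide as a block they were -0.29 and -0.34, and within slide 2 they were -0.69 and -0.23.

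**Figure D5:**
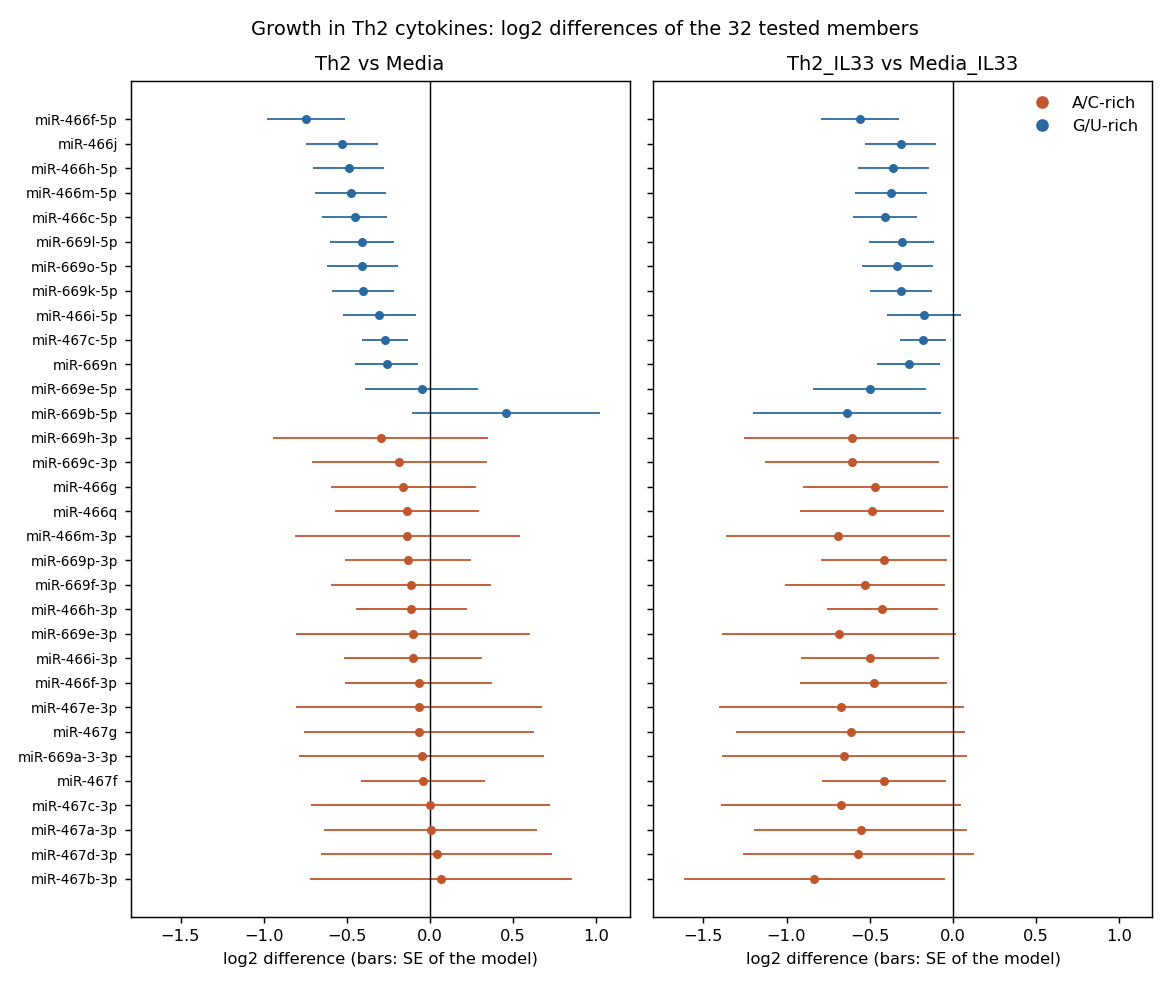
Log2 differences with their model SE for 32 tested members, for Th2 against Media (left) and Th2_IL33 against Media_IL33 (right), coloured by class. The G/U-rich members have values down to -0.74 and, apart from miR-669b-5p and miR-669e-5p, narrow errors, and the A/C-rich members have errors up to 0.79.

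IL-33 in cells grown in medium left 0 of 32 members past the threshold, with 1.73% of all tested miRNAs called. At an unadjusted p under 0.05 there were 0 members, against 5.63% of all tested miRNAs higher and 0.433% lower. The 4 with the smallest p were miR-669b-5p (0.96 ± 0.56), miR-669k-5p (-0.26 ± 0.19), miR-467c-5p (-0.18 ± 0.14) and miR-466j (-0.22 ± 0.21), each with a limma adjusted p of 1. MiR-669b-5p had 0.0777, 0.207, 0.0923 and 0.105 on Media 1 to 4, and 0.106, 0.332, 0.354 and 0.180 on Media_IL33 1 to 4. Its groups overlapped, and it was higher in 4 of 4 experiments, the only tested member for which this was so, against 14 of all 231 miRNAs (6.06%). Lower in 4 of 4 experiments were 3 members, miR-669k-5p, miR-466c-5p and miR-669l-5p, against 4.33% of all tested miRNAs. MiR-467c-5p was well above background on no array. The medians were 0.10 for the family, 0.14 for A/C-rich members (-0.14 with normexp) and -0.16 for G/U-rich members (0.053 with the scanner software's total signal). The A/C-rich median was -0.56 within slide 1, 1.87 within slide 2 where Media 1 is the single Media array, and 0.24 without the 3 arrays that stand apart.

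IL-33 in Th2-grown cells also left 0 of 32 members past the threshold, with 1.73% of all tested miRNAs called. At an unadjusted p under 0.05 there were 0 members, against 2.6% of all tested miRNAs higher. Lower in 4 of 4 experiments was 1 member, miR-669k-5p, which is also the only such miRNA of the 231 (0.433%). Its log2 difference in experiment 1 was only -0.0036, and it was well above background on 3 of 4 arrays of each group. The smallest p values were those of miR-669k-5p (-0.17 ± 0.19), miR-467c-3p (-0.54 ± 0.72), miR-467b-3p (-0.58 ± 0.79) and miR-669c-3p (-0.37 ± 0.53), each with a limma adjusted p of 1. MiR-467b-3p had 0.309, 0.327, 0.340 and 0.279 on Th2 1 to 4, and 0.331, 0.0567, 0.417 and 0.249 on Th2_IL33 1 to 4. The negative difference came from Th2_IL33 2, and without that array it was 0.055. The median of the family was -0.20, and 0.11 without the 3 arrays that stand apart. Without them 3 of 32 differences were negative in place of 30. With the slide as a block the family median was 0.053, and within slide 2, with Th2 4 alone, it was -0.34.

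The interaction, which takes the IL-33 difference without Th2 cytokines from the one with them, had 0 of 32 members and 0% of all tested miRNAs past the threshold, and 0 members at an unadjusted p under 0.05, against 1 higher (0.433%) and 4 lower (1.73%) of all 231. The widest estimate was that of miR-669b-5p (-1.09 ± 0.80, limma adjusted p = 0.995). The comparisons share control groups, so their values stand side by side and not as independent results.

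The subfamilies were also described apart. In Th2 against Media the median log2 difference was -0.23 for miR-466 (12 members), -0.020 for miR-467 (8) and -0.16 for miR-669 (12). Within the G/U-rich class it was -0.48 for miR-466 (6) and -0.33 for miR-669 (6). For the single miR-467 member, miR-467c-5p, well above background on no array, it was -0.27. Within the A/C-rich class it was -0.12 (6), 0.0030 (7) and -0.12 (6) for miR-466, miR-467 and miR-669. By the locus of the name, G/U-rich members with all genes inside Sfmbt2 had a median of -0.41 (9 members). Those with none inside it had -0.30 (3). Among these 3, the probes of miR-669n also list miR-669c-5p, and miR-466j shares a run of 17 bases with miR-466m-5p. The genes of miR-669c and miR-466m lie inside Sfmbt2, so the signals cannot be assigned to 1 locus and the lists are not cleanly apart. These differences between lists were not tested.

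Both arms were tested for 6 hairpin names, miR-466f, miR-466h, miR-466i, miR-466m, miR-467c and miR-669e. In Th2 against Media the 5p arms had log2 differences of -0.74, -0.49, -0.30, -0.48, -0.27 and -0.051, with standard errors of 0.14 to 0.34. The 3p arms of the same names had -0.068, -0.11, -0.10, -0.14, 0.0030 and -0.10, with standard errors of 0.33 to 0.72. For all but miR-669e the 5p value was the lower, though that of miR-467c-5p comes from signals well above background on no array. In Th2_IL33 against Media_IL33 the 5p value was the lower for miR-466f (-0.56 against -0.47) and the 3p value for the other 5 names, as for miR-467c (-0.67 against -0.18). The difference between arms was not tested.

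Other miRNAs with the letters UGUGUGU or ACACACA in the RefSeq mature sequence, together with miR-574-5p and miR-1187, numbered 9 on the array, of which 6 were tested: miR-574-5p, miR-1187, miR-3082-5p, miR-32-3p, miR-6348 and miR-672-5p. In Th2 against Media their log2 differences were -0.25, -0.28, -0.24, -0.22, -0.34 and -0.38, with a median of -0.26. None passed the threshold in any of the 5 comparisons. Under IL-33 the median was -0.26, and for IL-33 itself it was -0.022 in medium-grown and -0.016 in Th2-grown cells. All 6 probes are rich in A and C, like those of the G/U-rich members, and the part of shared probe sequence in these values was not tested.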

How the data were processed

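Total RNA of 16 cultures was labelled with Cy3 and read on Agilent mouse miRNA arrays, 1 colour per array. The deposited scanner files (Agilent Feature Extraction 10.7.3.1, per the file headers) hold the intensity of each spot, background-subtracted by that software, and its detection flags. A table of processed intensity values that the authors deposited came from Partek 6.6 and RMA, per the submitters' processing notes. It is on a linear scale, every column has the same median (0.428) and maximum (114686) over 3105 probes, and it served as an alternative only.

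Spots of a probe were averaged without outlier spots and the probes of a miRNA summed. Values were divided by the 75th percentile of the 178 miRNAs that every one of the 16 arrays detected, raised to a floor of 0.0353 and put on the log2 scale. The 231 miRNAs that some group showed as detected on each of its 4 arrays were tested with limma 3.58.1 in R 4.3.3, with 1 mean per group, 12 residual degrees of freedom and Benjamini-Hochberg adjustment over the 231. The threshold was an adjusted p of 0.05. The fit was tested on simulated data with independent noise for each miRNA and a shift larger than the members' group differences here. The simulation held no joint movement of members, so it cannot tell how the fit behaves with such movement. Sequences were taken from the probe column and RefSeq (GRCm38.p6), which held a mature sequence for 1031 of the 1247 miRNAs.

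Experiment numbers pair the arrays: the labels' descriptions give arrays of the same number the same experiment letter. The median correlation of deviations from group means between arrays of the same number was -0.13, -0.12, 0.32 and 0.16, against -0.048 for different numbers, so the first 2 do not deviate together and the pairing comes from the labels alone. Alternatives were other scalings, normexp, the deposited table, the scanner software's total signal, no filter, the experiment or slide as a block, array weights and leaving out arrays. Normexp was run with an offset of 50 per spot before probes were summed, which shrinks the log2 differences of dim miRNAs. Members and lists were chosen with earlier results of these data known. The classes by G and T were chosen after the values were seen, and the shares of A, C, G, T and of G and T together were all looked at against the difference between Media 3 and Media 1. Named members are the 4 with the smallest p in each comparison of 2 groups, those past the threshold there or with the experiment as a block, and for levels up to 4 tested members per subfamily detected on the most arrays. Other members named were chosen after their values were seen.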

Additional observations from a re-analysis of the deposited data

Results flagged for a closer look

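Within the groups of 4 arrays, 4 of the 100 sets of values examined had an array far from the other 3, by Dixon's ratio of the gap to the range. Chance flags about 1 in 20 groups. MiR-669b-5p was 0.0392 on Th2_IL33 2, where the nearest array of its group had 0.205. MiR-466i-5p was 1.14 on Media 3, where the nearest had 2.42. MiR-467f was 0.57 on Th2 1, where the nearest had 0.617, and miR-467d-3p was 0.216 on Th2 3, where the nearest had 0.198. The last pair of gaps is small in size, since the A/C-rich members had a median SD of 0.055 (log2) in Th2.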

How the results depend on the processing

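In Th2 against Media the count of members past the threshold, 0 in the fit reported, was higher in several settings, each given with the share of all 231 miRNAs called lower. It was 1 with scaling over all miRNAs (1.3%), 6 with quantile normalization (4.76%), 2 in the authors' deposited table (3.9%), 1 with the scanner software's total signal (1.73%), 2 with the experiment as a replicate block (1.73%), 1 with replicate and slide blocks together (1.3%), 10 with array weights (14.3%) and 1 without the 3 arrays that stand apart (2.16%). Leaving out each array in turn gave 0 to 1, with 1 without Media 3 (5.63%) and 1 without Media_IL33 1, Th2_IL33 2 or Th2_IL33 3 (1.3% each). All these calls were lower in Th2. It was 0 with normexp, the brightest probe, no filter, detection on all 16 arrays, the floor halved or doubled, the slide block and within each slide. In Th2_IL33 against Media_IL33 array weights gave 1 member (3.03%). The replicate block changed no other call. Within slide 2, with 1 Media array, the family, A/C-rich and G/U-rich medians for Th2 against Media were 1.12, 1.45 and 0.13. There the family and A/C-rich medians for Media_IL33 against Media were 1.47 and 1.87, the G/U-rich median for Th2_IL33 against Th2 was -0.39, and the 3 interaction medians were -1.70, -2.20 and -0.30. With normexp the G/U-rich median for Th2_IL33 against Media_IL33 was -0.030.

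Of the values of named members, 483 kept direction and side of the threshold, 17 kept direction and passed the threshold, and 14 changed sign. Within slide 2, miR-466j was 0.019 and miR-466h-5p 0.13 in Th2 against Media. In Media_IL33 against Media, miR-467c-5p was 0.20 and miR-466j 0.053 with the total signal, and miR-467c-5p was 0.010 within slide 1. In Th2_IL33 against Th2, miR-467b-3p and miR-669c-3p were 0.11 and 0.0010 with the slide block, and 0.055 and 0.040 without Th2_IL33 2 or without the 3 arrays, and miR-669k-5p was 0.014 with array weights. Leaving out each array in turn, miR-467b-3p ranged from -0.91 to 0.055 and miR-669c-3p from -0.59 to 0.040. With normexp, miR-466f-5p and miR-466c-5p were 0.055 and 0.0027 in Th2_IL33 against Media_IL33. The cause was not tested. The median of all tested miRNAs moved by more than 0.1 with the deposited table (-0.13 in Th2 against Media, -0.12 in Th2_IL33 against Media_IL33), with the total signal (0.14 in Media_IL33 against Media, -0.12 in Th2_IL33 against Media_IL33, -0.16 in the interaction), with scaling over all miRNAs (0.10 in Th2_IL33 against Th2) and with normexp (-0.10 in Media_IL33 against Media). No value within slide 1 could be given for comparisons with Th2_IL33, which has no array there. Members such as miR-466f-5p lie near background, which limits their fold changes.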
